A study of Drosophila melanogaster with 3 samples.

Results

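The cells described here are differentiating neurons, sorted from fly larval brains, that carried transcripts of Gad1, the glutamic acid decarboxylase that makes GABA. They were chosen by their counts: at least 2 unique molecular identifiers (UMIs, each standing for 1 captured RNA molecule) of Gad1, 0 of VAChT, 0 of VGlut, at most 9 of nSyb, 0 of dpn and 0 of repo. A barcode was kept as a cell if it had 1000 UMIs or more, 500 genes or more, and no more than 20% mitochondrial UMIs. The rule selected 1521 of 44461 cells, of which 518 came from the control library, 537 from the library labelled mud and 466 from the nanobody library. They are called Gad1-only cells. The cells they are set against met the same limits with at least 2 UMIs of VAChT alone (5216 VAChT-only cells) or of VGlut alone (2555 VGlut-only cells).

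Type 1 neuroblasts and their lineages were sorted from brains of larvae raised at 25 °C and aged 72 to 96 h from egg laying, and profiled with 10x Genomics 3′ chemistry as 1 library per genotype. The question behind the series is whether daughter cell size affects cell cycle and fate. Flies of all 3 genotypes had Sqh::GFP, the myosin light chain fused to GFP, together with worGal4 driving UAS-mCherry::Jupiter, a microtubule label, with worniu being a neuroblast gene. The control had nothing more, mud added the mud4 allele on the X chromosome, and nanobody added a UAS transgene joining an Inscuteable domain and a Rock kinase domain to a GFP-binding nanobody, VhhGFP4, with an HA tag. Numbers of animals pooled per library are not given in the labels, and all 3 libraries carry batch 1, so genotype and library cannot be told apart.

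Most fast inhibition in the insect brain is carried by GABA. Gad1 makes it, VGAT loads it into synaptic vesicles, Rdl and related channel subunits and the GABA-B receptors detect it, and Gabat and Ssadh break it down. In flies the neurons born from one neuroblast through one branch of its divisions, a hemilineage, usually share a transmitter and a set of transcription factors, and they lie idle through much of larval life before they build synapses. Prospero (pros), Nerfin-1 and Hey act in newborn neurons, whereas nSyb, Syt1 and brp belong to the release machinery of working synapses.

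The 3 libraries held 14852, 15194 and 14415 cells in the order control, mud and nanobody, with medians of 6528.5, 6176 and 6863 UMIs per cell. Library pairs shared 59 to 78 cell barcodes and no barcode of a Gad1-only cell. The mud transcript stood at 13.1 CPM in Gad1-only cells of the control, 36.7 CPM in those of the library labelled mud and 12.8 CPM in those of the nanobody library, where CPM are counts per 1000000 of the summed UMIs of the cells. A transcript level does not check the presence of the mud4 allele, and the library keeps the name its label gives it.

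Gad1-only cells were deeper than the cells they are set against, with medians of 8645.5, 8106 and 9120 UMIs in control, mud and nanobody. VAChT-only cells had 7523.5, 7249 and 8279.5, and VGlut-only cells had 6679, 6535 and 7296.5. The part of depth in the class differences was not tested. The class comparisons were repeated after every cell was thinned to 1000 UMIs. Gad1 itself was sparse in the chosen cells, with a median of 3 UMIs in each library. Cells just inside the rule, with exactly 2 Gad1 UMIs, numbered 199, 190 and 176, and cells just outside it, with 1 Gad1 UMI and the other limits met, numbered 390, 419 and 302. The median for nSyb was 4 UMIs. Cells with 9 nSyb UMIs numbered 24, 31 and 14, and cells with 10, outside the limit, numbered 17, 14 and 14.

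Markers that the rule did not use were those of neurons, with most glial and progenitor markers low. Pan-neuronal elav stood at 1638, 1257 and 1450 CPM in Gad1-only cells of control, mud and nanobody, against 1699, 1298 and 1443 CPM in VAChT-only cells. In cells with 1 or more UMIs of dpn, a neuroblast gene, elav stood at 820, 609 and 897 CPM. The 4 neuroblast and ganglion mother cell markers summed to 41.9 to 58.1 CPM in Gad1-only cells, 33.4 to 51.6 CPM in VAChT-only cells and 36.7 to 62.3 CPM in VGlut-only cells, with dpn at 0 by the rule. The 5 glial markers summed to 136 to 189 CPM, nearly all of it from nrv2, while Gs2 was at 0.45 to 1.05 CPM, alrm at 0.23 to 0.86 CPM, and moody at 0 in 2 of 3 libraries. The 4 hemocyte markers summed to at most 0.215 CPM. VGAT, the other GABAergic marker, was detected in all classes and highest in Gad1-only cells.

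The share of Gad1-only cells among all cells was 3.49% in control (exact 95% binomial interval 3.20 to 3.80), 3.53% in mud (3.25 to 3.84) and 3.23% in nanobody (2.95 to 3.53). The intervals overlapped. Among cells with a single transmitter marker, Gad1-only cells made up 16.9% in control (15.6 to 18.3), 17.6% in mud (16.3 to 19.0) and 14.7% in nanobody (13.4 to 15.9). The nanobody interval lay below that of mud and overlapped that of control. VAChT-only cells were 13.1% of all cells in nanobody, 11.7% in control and 10.5% in mud. With 1 library per genotype these shares could not be tested, and the intervals cover counting error only, not the spread between animals or dissections.

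Class comparisons used UMIs summed per class and library, 9 sums in all, and edgeR's quasi-likelihood test with library as a block, with p-values adjusted over all 7188 genes tested. The spread in that test is the class difference from library to library, and it includes any difference between the genotypes. Genes of the rule and ChAT, which shares its locus with VAChT, were left out. Against VAChT-only cells, 372 genes were higher (5.18% of those tested) and 476 were lower (6.62%) at an adjusted p under 0.05. Against VGlut-only cells, 507 genes were higher (7.05%) and 445 were lower (6.19%). Without 1 library the counts were 210 to 263 and 282 to 391 over VAChT-only cells, and 292 to 370 and 261 to 320 over VGlut-only cells. They fell by over 1.5 times without mud for the higher genes of both comparisons and the lower genes against VGlut-only cells, and without control for the higher and lower genes against VAChT-only cells and the lower genes against VGlut-only cells. Both comparisons share the Gad1-only sums, so their values are given side by side.

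The tested genes that load and clear GABA were higher in Gad1-only cells. Of 6 genes on that list, Gad1 was left out and 3 of the other 5 had enough counts to test, and all 3 passed in both comparisons. VGAT stood at 109, 105 and 108 CPM in Gad1-only cells of control, mud and nanobody, at 67.6, 64.4 and 63.5 CPM in VAChT-only cells, and at 63.9, 59.4 and 57.7 CPM in VGlut-only cells. Every Gad1-only library lay above every library of the other classes, which overlapped each other. Its log2 fold change was 0.75 ± 0.04 (SE) over VAChT-only cells (adjusted p = 2.3e-06) and 0.89 ± 0.05 over VGlut-only cells (adjusted p = 1.5e-06). VGAT was therefore present, at a lower level, in cells with no Gad1 UMI, while cells with none of the 3 transmitter markers held 7.5 to 9.0 CPM of VGAT.

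Ssadh, which oxidises the product of GABA breakdown, was at 30.3, 33.9 and 28.8 CPM in Gad1-only cells and at 11.3, 13.1 and 14.2 CPM in VAChT-only cells. In VGlut-only cells Ssadh was at 10.2, 15.9 and 12.5 CPM. The log2 fold changes of Ssadh were 1.30 ± 0.11 (adjusted p = 4.2e-05) and 1.32 ± 0.13 (adjusted p = 8.1e-05). Gabat, the GABA transaminase, was at 36.9, 42.4 and 48.2 CPM in Gad1-only cells, at 29.3, 31.1 and 40.0 CPM in VAChT-only cells, and at 30.8, 27.9 and 30.7 CPM in VGlut-only cells. Within each library Gabat was highest in Gad1-only cells, but the ranges of Gad1-only and VAChT-only cells overlapped. The log2 fold change of Gabat over VAChT-only cells was 0.38 ± 0.09 (adjusted p = 0.019), and without the mud library the adjusted p was 0.17. Over VGlut-only cells it was 0.57 ± 0.10 (adjusted p = 0.0032).

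**Figure D1:**
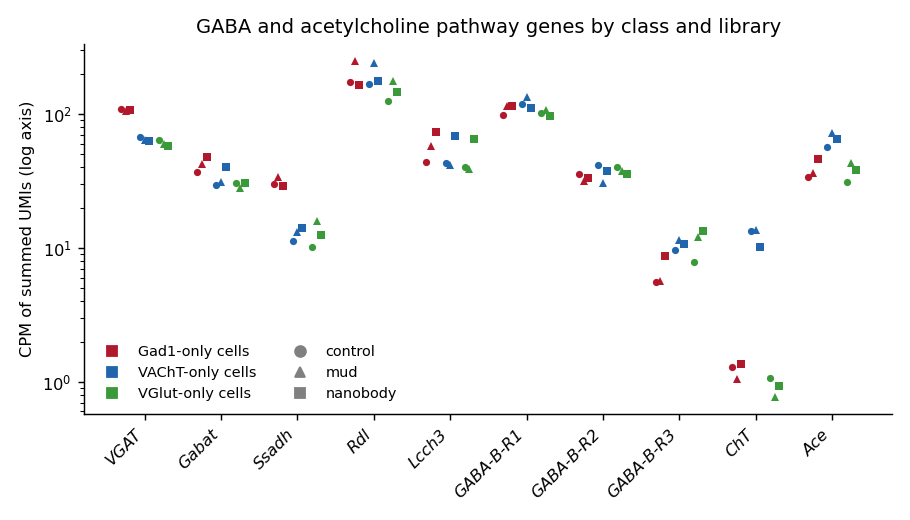
CPM of summed UMIs (log axis) for genes of GABA and acetylcholine signalling, with 1 point per class and library, coloured by class and shaped by library. VGAT at 105 to 109 CPM and Ssadh at 28.8 to 33.9 CPM sat above all points of the other classes, and ChT at 10.2 to 13.7 CPM was high in VAChT-only cells alone.

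GABA receptors did not form a marked group. Of 5 tested, none was higher and 1 was lower than in VAChT-only cells, and 2 were higher and 1 was lower than in VGlut-only cells. The shares of all genes tested that were higher and lower were 5.18% and 6.62%, and 7.05% and 6.19%, in that order. The ionotropic subunit Rdl was at 174, 250 and 164 CPM in Gad1-only cells, at 167, 241 and 177 CPM in VAChT-only cells and at 125, 177 and 147 CPM in VGlut-only cells. Its level varied as much between libraries as between classes. Within libraries Rdl was higher than in VGlut-only cells by 0.44 ± 0.06 on the log2 scale (adjusted p = 0.00095). The subunit Lcch3 also passed there, at 0.35 ± 0.09 (adjusted p = 0.029), but its adjusted p was 0.17 without the mud and 0.079 without the nanobody library. The metabotropic GABA-B-R3 passed as lower in both comparisons, at 5.58 to 8.78 CPM against 9.68 to 11.4 CPM and 7.88 to 13.3 CPM. The calls of GABA-B-R3 were weak. Over VAChT-only cells the adjusted p was 0.20 without the control and 0.30 without the mud library, and over VGlut-only cells it was 0.088, 0.28 and 0.078 without control, mud and nanobody.

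Acetylcholine genes separated Gad1-only from VAChT-only cells in both tested members. ChT, the choline transporter that feeds acetylcholine synthesis, was at 1.29, 1.05 and 1.35 CPM in Gad1-only cells and 13.5, 13.7 and 10.2 CPM in VAChT-only cells, a log2 difference of -3.29 ± 0.22 (adjusted p = 5.9e-06). In VGlut-only cells ChT was at 1.07, 0.77 and 0.94 CPM. Ace, the acetylcholinesterase, was at 33.9, 36.2 and 45.9 CPM in Gad1-only cells against 56.4, 72.4 and 64.7 CPM in VAChT-only cells, a log2 difference of -0.70 ± 0.09 (adjusted p = 0.00052). For Ace as for ChT, the Gad1-only and VAChT-only libraries did not overlap.

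Among genes with at least 50 CPM in a class, the largest fold change on the high side was that of CG14989 (FBgn0035495) in both comparisons. It stood at 13141, 12343 and 13455 CPM in Gad1-only cells of control, mud and nanobody. In VAChT-only cells it was at 112, 91.2 and 104 CPM, and in VGlut-only cells at 74.8, 92.6 and 31.6 CPM. Its log2 fold changes were 7.02 ± 0.22 (adjusted p = 2.2e-08) and 7.68 ± 0.24 (adjusted p = 3.1e-08). CG14989 neighbours Gad1: in the BDGP6.54 assembly it runs from 4087581 to 4092706 on the plus strand of chromosome 3L, and Gad1 (FBgn0004516) from 4074077 to 4088744 on the minus strand. The 5′ ends of the genes overlap by 1164 bases, and their 3′ ends, from which this chemistry reads, lie 18629 bases apart. Whether counting used strand is not given in the sources used here, so reads from the shared bases cannot be assigned with certainty.

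The pattern held cell by cell. Gad1-only cells had a median of 113, 99 and 105.5 UMIs of CG14989, and 98.1%, 98.3% and 98.5% of them had at least 10, a threshold set after its values had been seen. Of VAChT-only cells 1.27%, 1.07% and 0.952% reached it, and of VGlut-only cells 1.24%, 1.30% and 0.364%. Among cells with repo, a glial gene, the share was 4.49%, 1.87% and 0%, where 0 of 59 cells in nanobody allows a share of up to 6.06% (exact 95% interval). Among cells with exactly 1 Gad1 UMI it was 86.7%, 76.4% and 79.5%. Cells with none of the 3 markers and the same limits reached it in 6.20%, 6.25% and 6.37%, which amounts to 550, 522 and 509 cells, close to the numbers of Gad1-only cells. Replacing the Gad1 limit by 10 UMIs of CG14989 gave 1396, 1370 and 1208 cells, or 9.40%, 9.02% and 8.38% of all cells.

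Transcription factors made up most of the other genes that were highest in Gad1-only cells. The named genes are those with at least 50 CPM in a class, passing the test with 1 direction in 3 of 3 libraries, and the 8 largest fold changes each way. Over VAChT-only cells these were CG14989, Fer3, vg, pb, CG4328, Dr, CG18599 and Lmx1a. Over VGlut-only cells they were CG14989, Fer2, Dbx, Fer3, abd-A, CG13739, nvy and pb. No setting tried ended the call of any of these genes, or of the 8 lowest in each comparison, or turned its direction.

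Vestigial (vg), a transcriptional cofactor best known for directing wing development, was the most abundant of these factors in the sums after CG14989. Gad1-only cells held 417, 405 and 287 CPM of vg, VAChT-only cells 30.1, 17.4 and 18.6 CPM, and VGlut-only cells 105, 75.1 and 66.9 CPM. The 3 classes did not overlap, and the log2 fold changes of vg were 4.10 ± 0.11 (adjusted p = 1.5e-08) and 2.23 ± 0.10 (adjusted p = 4.8e-07). Fer3, a basic helix-loop-helix factor, was at 93.2, 42.8 and 73.0 CPM, against 1.38, 2.12 and 3.73 CPM in VAChT-only and 2.69, 2.60 and 0.63 CPM in VGlut-only cells. The related Fer2 was at 176, 138 and 156 CPM, against 33.0, 10.4 and 25.3 CPM and 5.01, 3.21 and 1.25 CPM. Both helix-loop-helix genes were thus lowest in the mud library among Gad1-only cells, and far above the other classes in each library. Dbx, a homeodomain factor found mostly in GABAergic interneurons of the fly embryonic nerve cord, was at 77.5, 50.4 and 64.2 CPM, against 13.5, 5.70 and 9.15 CPM and 1.25, 1.22 and 1.25 CPM. Its log2 fold changes were 2.81 ± 0.11 (adjusted p = 2.0e-07) and 5.71 ± 0.19 (adjusted p = 4.8e-08).

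Some of these factors separated Gad1-only cells from one class only in size or direction. Dr, a homeodomain factor of the msh family, was at 74.7, 88.5 and 43.7 CPM in Gad1-only cells and 7.06, 6.27 and 3.49 CPM in VAChT-only cells, but at 133, 116 and 58.5 CPM in VGlut-only cells. It was higher than in VAChT-only cells by 3.65 ± 0.11 on the log2 scale (adjusted p = 2.2e-08) and lower than in VGlut-only cells, at -0.50 ± 0.08 (adjusted p = 0.0029). Lmx1a, a LIM-homeodomain factor, differed from VAChT-only cells by 3.23 ± 0.24 (adjusted p = 1.1e-05) and from VGlut-only cells by 0.11 ± 0.20 (adjusted p = 0.81). CG4328, another LIM-homeodomain gene, was higher in both, at 79.9, 92.9 and 74.5 CPM against 7.64, 5.37 and 6.14 CPM and 22.7, 15.5 and 20.3 CPM. The homeotic gene pb was at 100, 92.7 and 122 CPM against 7.86, 3.91 and 7.58 CPM and 10.4, 24.5 and 7.98 CPM.

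**Figure D2:**
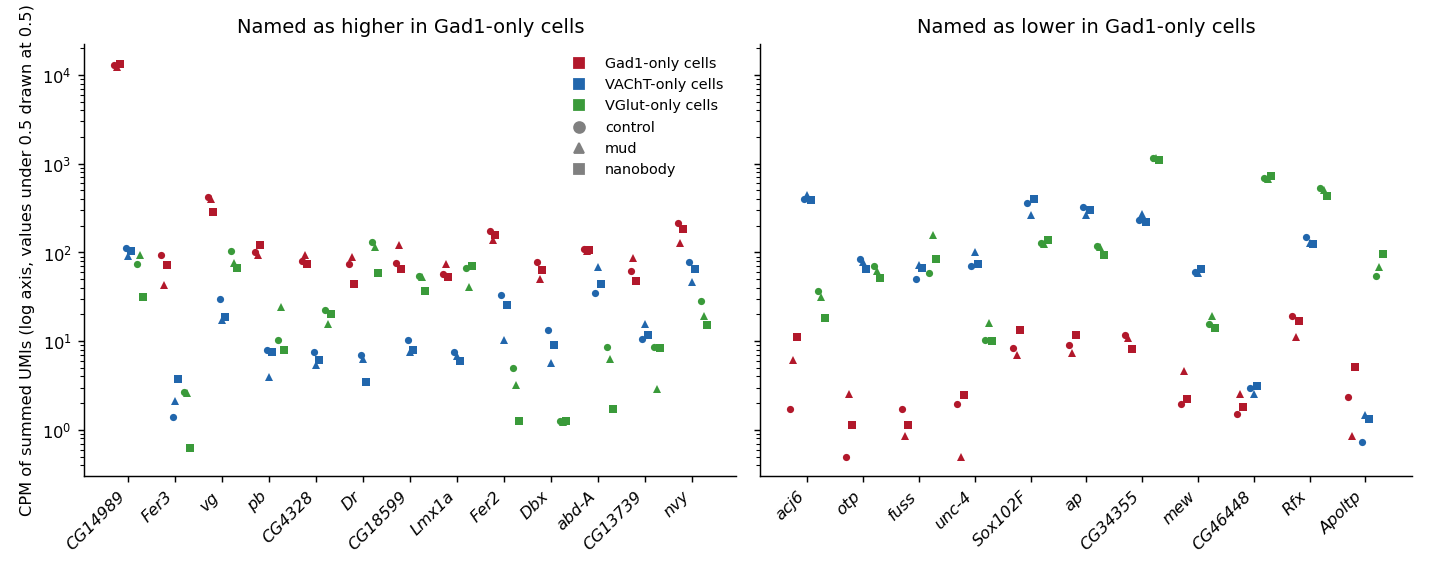
CPM of summed UMIs (log axis) for the genes named as higher (left) and lower (right) in Gad1-only cells, with 1 point per class and library, and values under 0.5 drawn at 0.5. CG14989 stood at 12343 to 13455 CPM in Gad1-only cells, and CG34355 and CG46448 were highest in VGlut-only cells, at 1117 to 1173 CPM and 679 to 729 CPM.

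No single one of these factors marked all Gad1-only cells. Cells with at least 2 UMIs of vg made up 27.2% of them in control (exact 95% interval 23.4 to 31.3), 34.3% in mud (30.3 to 38.4) and 25.1% in nanobody (21.2 to 29.3). Nervy (nvy), a co-repressor, was held by 34.9%, 22.7% and 33.7%, CG4328 by 19.9%, 21.4% and 18.5%, and Dbx by 17.2%, 12.1% and 16.3%. Fer2 was held by 13.5%, 12.8% and 11.2%, Fer3 by 9.65%, 6.89% and 11.8%, and pb by 9.07%, 9.12% and 9.66%. In cells with repo, taken as cells that should lack them, CG4328, Dbx, Fer3, pb and vg were held by 0% to 1.12%. In the same cells Fer2 was held by 0% to 2.80%, nvy by 1.69% to 5.62% and Dr by 4.49% to 8.41%. At least 1 of the 12 named factors and genes other than CG14989 was held by 83.6%, 82.5% and 78.1% of Gad1-only cells. These genes were chosen as the highest in the same cells, so that share follows in part from the choice. It was not counted in the other classes.

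Some pairs of these factors met in 1 cell often and others hardly at all, over the 1521 Gad1-only cells of all libraries. Of 215 cells with CG18599, 200 (93.0%) also held vg, against 29.1% of all Gad1-only cells. Vg was likewise held by 208 of 304 cells with CG4328 (68.4%) and by 150 of 208 cells with Lmx1a (72.1%). Of 191 cells with Fer2, 119 (62.3%) held Dbx, against 15.1% of all, and 149 of 230 cells with Dbx (64.8%) held nvy, against 30.2%. Vg hardly met Dbx, Fer2, Fer3 or pb, since 1 cell held vg with Dbx, 1 held vg with Fer2, 2 held vg with Fer3 and none of the 141 cells with pb held vg. CG4328 and Lmx1a, which often met vg, also met Dbx. Dbx was held by 45 cells with CG4328 and 31 with Lmx1a, close to the 46.0 and 31.5 that their separate shares would give, while none held CG4328 with Fer2. Of 142 cells with Fer3, 68 (47.9%) held Dbx, 58 (40.8%) held CG4328 and 42 (29.6%) held Lmx1a, and none held Fer2. Of the 141 cells with pb, 67 (47.5%) held Dr, against 9.86% of all, 36 (25.5%) held Fer3, against 9.34% of all, and 35 (24.8%) held Dbx. None of the 150 cells with Dr held Dbx. The pairings named first were seen in each library, since CG18599 with vg was found in 61, 91 and 48 cells, Dbx with Fer2 in 51, 40 and 28, and Dr with pb in 25, 30 and 12. These are counts of cells that share libraries and depth, and the genes were named for their class difference and not for their pairing.

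**Figure D3:**
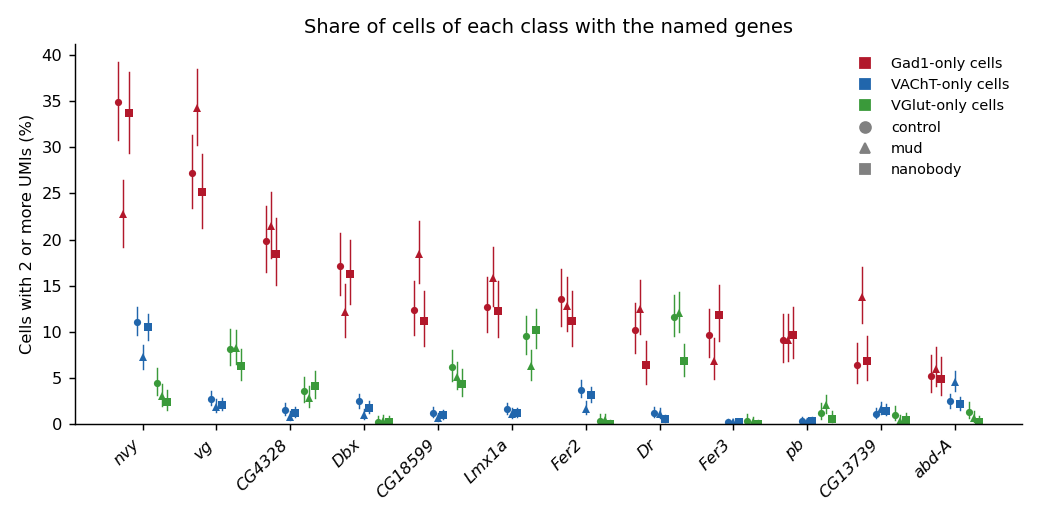
Share of cells (%) with at least 2 UMIs of each named gene other than CG14989, by class and library, with exact 95% binomial intervals that cover counting error. In Gad1-only cells nvy reached 22.7% to 34.9% and vg 25.1% to 34.3%, and Dr and Lmx1a were also common in VGlut-only cells, at 6.80% to 12.03% and 6.28% to 10.2%.

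Most of the genes lowest against VAChT-only cells were also transcription factors. Over VAChT-only cells the named ones were acj6, otp, fuss, unc-4, Sox102F, ap, CG34355 and mew. Acj6, a POU-domain factor, was at 1.72, 6.11 and 11.03 CPM in Gad1-only cells and 400, 448 and 394 CPM in VAChT-only cells, a log2 difference of -6.02 ± 0.27 (adjusted p = 3.6e-07). Unc-4, a homeodomain factor known to favour cholinergic over GABAergic fate in the fly nerve cord, was at 1.93, 0.42 and 2.48 CPM against 70.8, 100 and 74.3 CPM. Its difference was -5.64 ± 0.22 (adjusted p = 1.5e-07). In VGlut-only cells acj6 was at 37.1, 31.7 and 18.3 CPM and unc-4 at 10.2, 16.1 and 10.2 CPM, so Gad1-only cells were lowest of the 3 classes. The LIM-homeodomain factor ap was at 9.02, 7.37 and 11.7 CPM against 329, 268 and 302 CPM and 119, 114.6 and 92.9 CPM. The homeodomain factor otp was listed at 0, 2.53 and 1.13 CPM against 83.3, 77.6 and 64.9 CPM and 69.6, 62.6 and 51.8 CPM.

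Over VGlut-only cells the named genes on the low side were CG46448, CG34355, fuss, otp, Rfx, Apoltp, Sox102F and ap. CG46448 was at 1.503, 2.528 and 1.801 CPM in Gad1-only cells and 685, 679 and 729 CPM in VGlut-only cells, a log2 difference of -8.42 ± 0.08 (adjusted p = 3.5e-12). In VAChT-only cells it was at 2.98, 2.52 and 3.13 CPM, which did not differ from Gad1-only cells beyond the spread (adjusted p = 0.26). CG34355 was at 11.6, 10.96 and 8.11 CPM against 1155, 1173 and 1117 CPM in VGlut-only cells and 232, 270 and 220 CPM in VAChT-only cells. Rfx, a winged-helix factor, was at 19.1, 11.2 and 16.9 CPM against 530, 509 and 429 CPM in VGlut-only and 150, 127 and 126 CPM in VAChT-only cells. Files and annotation give no role for CG46448 or CG34355.

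Of 118 identity transcription factors tested, 35 were higher and 45 lower than in VAChT-only cells, with a median log2 fold change of -0.31 beside 0.01 over all genes tested. Over VGlut-only cells 39 were higher and 43 lower, with a median of -0.17 beside -0.00. Leaving out 1 library gave 28 to 36 higher and 33 to 43 lower in the first comparison, and 36 to 38 and 38 to 43 in the second. With all libraries, 5.18% of all genes tested were higher and 6.62% lower in the first comparison, and 7.05% and 6.19% in the second. Engrailed and its neighbour invected, paralogous homeodomain factors, were both on the high side. The former, en, was at 40.6, 19.6 and 22.3 CPM against 3.57, 3.09 and 3.37 CPM and 0.18, 0.15 and 0.16 CPM, and the latter, inv, at 55.2, 44.0 and 40.1 CPM against 8.66, 6.02 and 4.995 CPM and 1.79, 2.75 and 0.94 CPM. Log2 fold changes of en were 3.03 ± 0.18 (adjusted p = 2.0e-06) over VAChT-only and 7.29 ± 0.34 (adjusted p = 4.8e-07) over VGlut-only cells. In VGlut-only cells en lay below the level that 3 UMIs would give, 0.46 to 0.54 CPM. The size of the second fold change rests on those few UMIs.

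Homeotic genes of the trunk and their partners were among the factors tested. The rule did not separate nerve cord from brain cells. Shares of cells with at least 2 UMIs of Antp were 38.4%, 31.8% and 34.8% in Gad1-only and 16.8%, 17.5% and 15.6% in VAChT-only cells. In VGlut-only cells they were 22.5%, 22.1% and 16.9%. The part of body region in the class differences was not tested. Antp, a thoracic homeotic gene, was at 706, 528 and 600 CPM in Gad1-only cells, 317, 339 and 273 CPM in VAChT-only cells and 432, 370 and 281 CPM in VGlut-only cells. Gad1-only cells lay above both other classes in every library, and the log2 fold changes of Antp were 1.01 ± 0.10 (adjusted p = 9.8e-05) and 0.83 ± 0.10 (adjusted p = 0.00045). The abdominal gene abd-A was at 110, 103 and 107 CPM against 35.3, 67.8 and 44.5 CPM and 8.59, 6.27 and 1.72 CPM. Its log2 fold changes were 1.18 ± 0.20 (adjusted p = 0.0031) and 4.37 ± 0.32 (adjusted p = 1.2e-05). Ubx passed over VGlut-only cells, at 291, 195 and 361 CPM against 87.4, 71.6 and 35.2 CPM (adjusted p = 0.00037), and not over VAChT-only cells (0.50 ± 0.23, adjusted p = 0.22). The homeotic cofactor hth was higher in both, by 0.58 ± 0.08 (adjusted p = 0.0011) and 0.89 ± 0.08 (adjusted p = 7.1e-05). The trunk factor tsh passed in both as well, at 0.67 ± 0.13 (adjusted p = 0.0077) and 0.75 ± 0.14 (adjusted p = 0.0052), but without the control library its adjusted p over VAChT-only cells was 0.062.

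Other transcription factors were held by more Gad1-only cells than the named ones. By mean share with at least 2 UMIs the 12 leading ones were jim, hth, onecut, pdm3, ct, bab2, luna, Antp, NK7.1, jing, tsh and Lim1. Of these, jim, hth, bab2, Antp and tsh were higher in both comparisons, NK7.1 over VAChT-only cells alone, and ct, pdm3 and Lim1 over VGlut-only cells. Luna was lower in both, pdm3 and jing were lower than in VAChT-only cells, and onecut passed in neither. Leaving out 1 library ended the calls of bab2, pdm3, jing and tsh over VAChT-only cells and of luna and Lim1 over VGlut-only cells. After thinning to 1000 UMIs, jim was found in 86.9%, 87.9% and 89.9% of Gad1-only cells and in 79.4% to 86.5% of the other classes. Antp was found in 29.0%, 23.5% and 25.5%, against 11.7% to 13.3% of VAChT-only and 11.7% to 17.7% of VGlut-only cells. In cells with repo, Antp was found in 4.49% to 6.78%. The shares of jim, onecut, pdm3, bab2, jing, tsh and Lim1 there were also below those in Gad1-only cells. Ct, luna and NK7.1 were more common with repo, at 62.7% to 74.2%, 33.9% to 51.7% and 33.9% to 41.1%. In Gad1-only cells these were at 39.7% to 43.6%, 16.4% to 20.9% and 14.8% to 19.0%. For hth the order differed between libraries. Antp and tsh went together, with 392 of 488 cells with tsh (80.3%) holding Antp, against 35.0% of all Gad1-only cells, and 468 of those 488 (95.9%) holding hth, against 75.9% of all. NK7.1 and Lim1 met in 75 cells, 15.9% of the 472 with Lim1, while 34.7% of all Gad1-only cells held NK7.1.

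Genes of newborn neurons moved both ways. Of 12 tested, 4 were higher and 3 lower than in VAChT-only cells, and 3 were higher and 2 lower than in VGlut-only cells. Over all genes tested the shares were 5.18% and 6.62% in the first comparison, and 7.05% and 6.19% in the second. Prospero, a homeodomain factor that ends progenitor division, was at 20075, 15986 and 22050 CPM in Gad1-only cells. In VAChT-only cells pros was at 14569, 11461 and 16263 CPM, and in VGlut-only cells at 9166, 6246 and 11160 CPM. In every library the order was Gad1-only, VAChT-only, VGlut-only. The log2 fold changes of pros were 0.50 ± 0.06 (adjusted p = 0.00023) and 1.21 ± 0.06 (adjusted p = 4.8e-07). Nerfin-1, a zinc-finger factor that keeps neurons from reverting, was lower: nerfin-1 was at 506, 454 and 398 CPM against 709, 620 and 570 CPM and 700, 648 and 619 CPM. The Notch target Hey was also lower, at 25.3, 18.5 and 17.6 CPM against 40.8, 31.3 and 25.6 CPM and 40.6, 35.5 and 30.8 CPM. Hey and nerfin-1 passed in both comparisons, with adjusted p from 1.3e-05 to 0.00089. The early-neuron gene insb was higher in both, at 0.61 ± 0.13 and 0.53 ± 0.14, but its adjusted p was 0.082 and 0.22 without the mud library, and over VGlut-only cells it was 0.13 without the control library.

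Markers of birth time differed mainly from VGlut-only cells. Imp, an RNA-binding protein of early-born neurons, was at 683, 1255 and 613 CPM in Gad1-only cells and 1499, 1957 and 772 CPM in VGlut-only cells, a log2 difference of -0.65 ± 0.11 (adjusted p = 0.0031). Over VAChT-only cells, at 800, 1399 and 581 CPM, Imp did not pass (adjusted p = 0.79). Syp, its late counterpart, was at 1254, 1152 and 1479 CPM against 996, 810 and 1069 CPM in VGlut-only cells and 1159, 1032 and 1290 CPM in VAChT-only cells. The log2 fold changes of Syp were 0.49 ± 0.03 (adjusted p = 7.3e-06) and 0.19 ± 0.03 (adjusted p = 0.0037). Imp was highest in the mud library in each class. The factor chinmo was higher than in VGlut-only cells by 0.32 ± 0.04 (adjusted p = 0.0002). Over VAChT-only cells chinmo was higher by 0.14 ± 0.03 (adjusted p = 0.025, and 0.16 without the mud library).

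Synapse and excitability genes that passed were mostly lower than in VAChT-only cells and mostly higher than in VGlut-only cells. Of 22 tested, 1 was higher and 6 were lower than in VAChT-only cells, whereas 14 were higher and 2 lower than in VGlut-only cells. Without the mud library the 14 became 6, and without the nanobody library 8. Over VAChT-only cells 15 did not pass, and the median log2 fold change of the list was -0.05. Over VGlut-only cells 6 did not pass, and the median was 0.25. Of all genes tested, 5.18% were higher and 6.62% lower than in VAChT-only cells, and 7.05% and 6.19% than in VGlut-only cells. Rim, an organiser of the release site, was higher in both: 409, 513 and 523 CPM against 357, 384 and 366 CPM and 247, 291 and 252 CPM, with log2 fold changes of 0.41 ± 0.06 (adjusted p = 0.0011) and 0.92 ± 0.06 (adjusted p = 6.5e-06). The microtubule-associated futsch was lower in both, at 149, 173 and 173 CPM against 373, 363 and 346 CPM and 276, 287 and 236 CPM. The sodium channel para was at 65.7, 160 and 74.1 CPM against 34.7, 74.2 and 43.5 CPM in VGlut-only cells, a log2 fold change of 1.00 ± 0.10 (adjusted p = 7.7e-05). Over VAChT-only cells para did not pass (-0.06 ± 0.08, adjusted p = 0.75). The potassium channel Sh was lower than in VAChT-only cells, at -0.44 ± 0.06 (adjusted p = 0.0011), and higher than in VGlut-only cells, at 0.52 ± 0.07 (adjusted p = 0.00054). The active-zone gene brp was lower than in VAChT-only cells by -0.33 ± 0.07 (adjusted p = 0.013). Over VGlut-only cells brp was higher by 0.32 ± 0.08 (adjusted p = 0.018), with adjusted p of 0.19 without the mud library and 0.14 without the nanobody library.

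Gad1-only cells spanned a range of nSyb counts, and other genes followed it. The following levels are a description, since nSyb was part of the rule. Cells with 0 nSyb UMIs numbered 114, 75 and 73, those with 1 to 4 numbered 205, 237 and 210, and those with 5 to 9 numbered 199, 225 and 183. Beyond the limit, 83, 104 and 87 cells had 10 or more. Median depth went up along the same series, from 6336 to 6539 UMIs in the first to 12210.5 to 14525 UMIs in the last. VGAT stood at 44.9, 48.1 and 27.8 CPM in cells with 0 nSyb UMIs, at 135, 124 and 128 CPM with 5 to 9, and at 271, 278 and 238 CPM with 10 or more. Syt1, a vesicle calcium sensor, was at 53.9, 57.4 and 57.4 CPM, then 395, 402 and 440 CPM, then 1066, 1014 and 920 CPM. Nerfin-1 ran the other way, with nerfin-1 at 855, 728 and 746 CPM, then 392, 375 and 298 CPM, then 194, 283 and 163 CPM. Insb did likewise, with insb at 357, 296 and 287 CPM in the first group and 61.2, 66.9 and 25.9 CPM in the third.

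Pros did not change in 1 direction along this range, and para rose sharply across the limit. Pros was at 4790, 7641 and 4633 CPM with 0 nSyb UMIs, at 21069, 19039 and 26577 CPM with 1 to 4, and at 24890, 15441 and 22463 CPM with 5 to 9. With 10 or more, pros was at 8765, 5176 and 14477 CPM, below the level of the middle groups in all 3 libraries. Para was at 94.4, 196 and 97.8 CPM with 5 to 9 nSyb UMIs and at 887, 851 and 658 CPM with 10 or more, the steepest rise of the plotted genes across the limit. Gad1 itself stood at 415, 447 and 414 CPM with 5 to 9 and at 2006, 1823 and 1261 CPM with 10 or more. CG14989 varied less, from 9960 to 11737 CPM with 0 nSyb UMIs to 18629 to 21391 CPM with 10 or more.

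**Figure D4:**
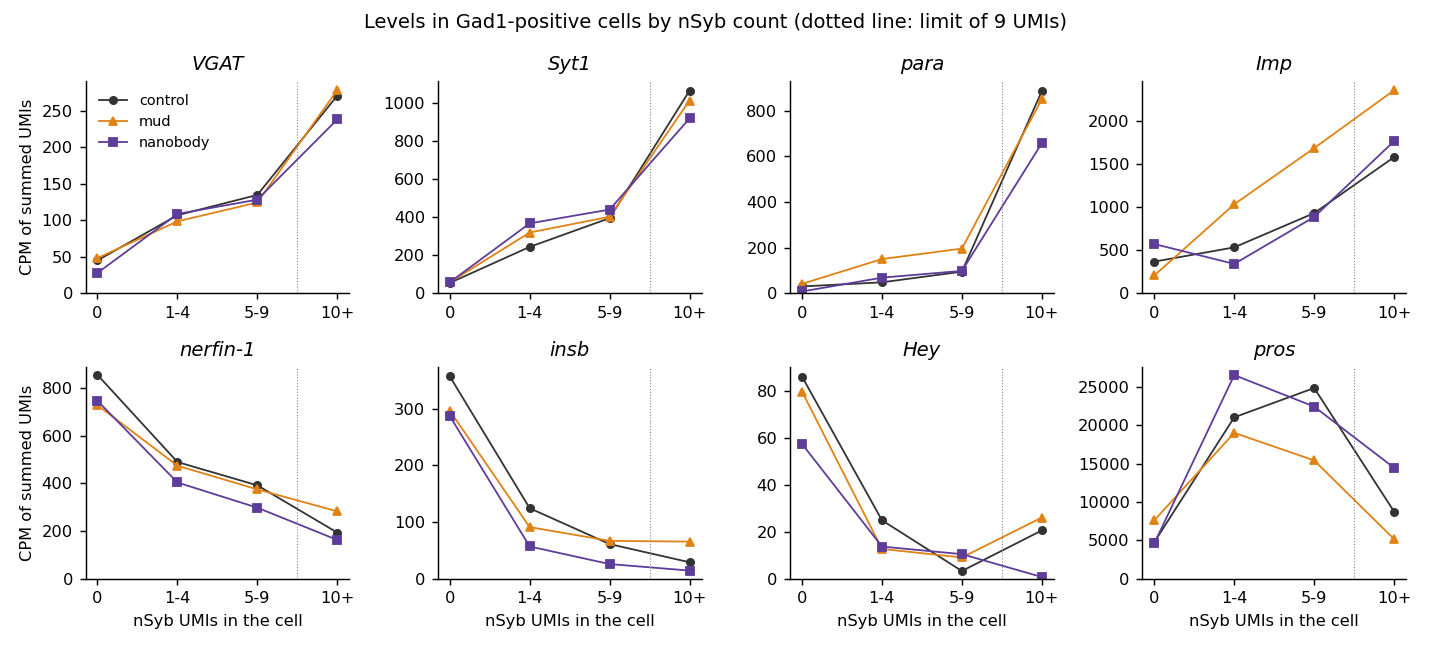
CPM of summed UMIs for 8 genes in Gad1-positive cells grouped by their nSyb count, with 1 line per library and a dotted line at the limit of 9 UMIs. VGAT, Syt1 and para went up with nSyb, nerfin-1 and insb went down, and pros was highest between 1 and 9 nSyb UMIs.

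Receptors for acetylcholine and glutamate were mixed over VAChT-only cells, and those that passed over VGlut-only cells were mostly higher. Of 11 acetylcholine receptor genes tested, 3 were higher and 3 lower than in VAChT-only cells, and 5 were higher and 1 lower than in VGlut-only cells. Without the mud or the nanobody library the 5 became 3, and without the control library the 3 lower than in VAChT-only cells became 1. The muscarinic receptor mAChR-A was at 93.6, 120 and 96.8 CPM in Gad1-only cells, 83.0, 95.9 and 72.3 CPM in VAChT-only cells and 59.6, 67.6 and 56.2 CPM in VGlut-only cells. Its log2 fold changes were 0.34 ± 0.05 (adjusted p = 0.0024) and 0.81 ± 0.06 (adjusted p = 1.4e-05). The nicotinic subunit nAChRbeta1 was lower in both, at -0.44 ± 0.06 (adjusted p = 0.00066) and -0.47 ± 0.06 (adjusted p = 0.00053). Of 8 glutamate receptor genes, 2 were higher and 1 lower than in VAChT-only cells, and 3 were higher than in VGlut-only cells, which became 1 without the mud library. Among all genes tested, 5.18% were higher and 6.62% lower than in VAChT-only cells, and 7.05% and 6.19% than in VGlut-only cells. The metabotropic mGluR was at 52.4, 77.5 and 82.0 CPM against 32.3, 48.7 and 47.7 CPM and 37.2, 42.4 and 42.7 CPM, and passed in both (adjusted p = 0.00014 and 0.00013).

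Cell surface recognition genes, which guide axons and partner choice, were more often lower than higher against VAChT-only cells. Of 95 tested, 9 were higher and 38 lower, with a median log2 fold change of -0.11. Over VGlut-only cells 26 were higher and 24 lower, with a median of 0.03. Of all genes tested, 5.18% were higher and 6.62% lower than in VAChT-only cells, and 7.05% and 6.19% than in VGlut-only cells. The medians over all genes were 0.01 and -0.00. DIP-beta, an immunoglobulin protein that binds Dpr partners, was at 108, 71.4 and 124 CPM against 16.8, 14.0 and 25.6 CPM and 29.2, 7.65 and 36.9 CPM. Its log2 fold changes were 2.47 ± 0.19 (adjusted p = 1.4e-05) and 2.15 ± 0.20 (adjusted p = 7.4e-05). Fas2, a homophilic adhesion molecule of axon bundles, was at 125, 224 and 202 CPM against 475, 864 and 516 CPM and 505, 635 and 474 CPM. The leucine-rich repeat proteins trn and caps were both lower, trn by -1.13 ± 0.08 and -1.53 ± 0.08, and caps by -0.71 ± 0.07 and -1.005 ± 0.067. Dscam3 was at 8.37, 13.9 and 29.5 CPM against 92.5, 94.99 and 131 CPM and 58.7, 65.2 and 108 CPM. For Fas2 and Dscam3 every Gad1-only library lay below every library of the other classes.

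Among the remaining lists some gave calls in both directions, and others in 1 direction or none. The shares of all genes tested that passed were 5.18% higher and 6.62% lower over VAChT-only cells. Over VGlut-only cells they were 7.05% and 6.19%. Of 9 neuropeptide genes tested, Nplp1 alone passed over VAChT-only cells, at 42.3, 52.7 and 51.6 CPM against 7.50, 11.2 and 9.93 CPM (adjusted p = 3.0e-06). Over VGlut-only cells, at 44.0, 38.7 and 33.5 CPM, no neuropeptide gene passed, and for Nplp1 the adjusted p was 0.094. Without the nanobody library 13 neuropeptide genes had enough counts to test, and 5 of them were lower than in VAChT-only cells. Of 6 aminergic genes tested, 1 was higher and 2 (Tbh and prt) were lower than in VAChT-only cells, and 1 was higher and 3 (Ddc, Vmat and ple) were lower than in VGlut-only cells, with a median log2 fold change of -1.53. The higher gene was Trh in both. Trh, a tryptophan hydroxylase that makes serotonin, was at 4.72, 15.8 and 6.30 CPM against 0.44, 1.14 and 0.84 CPM and 0.54, 0.31 and 0.63 CPM, passing in both (adjusted p = 7.0e-05 and 0.00011). Vmat, the vesicular monoamine transporter, was at 10.5, 3.79 and 1.58 CPM against 16.3, 33.4 and 42.7 CPM in VGlut-only cells (adjusted p = 0.0082, and 0.081 without the mud library). Tbh, which makes octopamine, was lower than in VAChT-only cells (adjusted p = 0.0099), with adjusted p of 0.073 without the control and 0.065 without the mud library. Of 11 neuronal RNA-binding and pan-neuronal genes, 3 were higher and 3 lower than in VAChT-only cells, and 4 were higher and 2 lower than in VGlut-only cells. Without the control library the 3 lower became 1. Of 13 progenitor genes, 1 was higher and 1 lower than in VAChT-only cells, and 0 and 2 in the other comparison. Of 15 cell cycle genes, RnrS passed as higher than in VAChT-only cells (adjusted p = 0.049) and no other passed in either comparison. Leaving out any 1 library ended that call, with adjusted p of 0.30, 0.12 and 0.083 without control, mud and nanobody. Among 6 tested glial list members, gcm and Eaat2 were higher in both comparisons, while repo was 0 by the rule. For Eaat2 over VAChT-only cells the adjusted p was 0.068 without the mud library. Gcm, the glial determinant, was at 23.8, 43.4 and 29.3 CPM against 2.18, 4.97 and 1.32 CPM and 0.72, 1.38 and 0.16 CPM (adjusted p = 3.8e-06 and 3.7e-06). None of 3 tested hemocyte markers passed.

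Stress genes were slightly higher in Gad1-only cells, with 7 of 13 passing over each class, and without the mud library 2 over VAChT-only and 4 over VGlut-only cells. By comparison, 5.18% of all genes tested were higher than in VAChT-only cells and 7.05% than in VGlut-only cells. Without the nanobody library 4 stress genes passed as higher over VAChT-only cells. The differences were small: Hsp27, a small heat shock protein, was at 4108, 4192 and 5109 CPM against 3984.5, 3836 and 4782 CPM and 3891, 3823 and 4608 CPM, log2 fold changes of 0.12 ± 0.02 and 0.18 ± 0.02. Over VAChT-only cells the adjusted p of Hsp27 was 0.0038, and 0.0996 without the mud library. Xrp1, a stress-response factor, was lower than in VAChT-only cells at -0.21 ± 0.05 (adjusted p = 0.030), and lost that call without any 1 of the libraries (adjusted p from 0.072 to 0.19). The Hsp70 genes are near-identical copies, so the share of reads given to each is uncertain. Some members of this list, such as Hsp70Ab and Hsp68, differed far more between libraries than between classes.

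Within Gad1-only cells, the altered genotypes could be set against the control only as single libraries, and ratios are given after adding 5 CPM. Of 2789 genes with at least 50 CPM in either library, 27 were at least 2-fold higher (0.968%) and 4 at least 2-fold lower (0.143%) in the library labelled mud. For nanobody, 6 of 2768 were higher (0.217%) and 4 lower (0.145%). Stress genes were prominent in both sets, with 5 of 10 members at least 2-fold higher in mud and 4 of 10 in nanobody, and list medians of 1.11 and 0.92 on the log2 scale. The median over all genes was -0.05 and -0.01. Obp44a, an odorant-binding protein gene on the glial list, was among the 5 highest genes in nanobody, at 55.2 CPM against 16.3 CPM in control. In VAChT-only cells Obp44a was at 269 and 83.5 CPM, and in barcodes of 20 to 200 UMIs at 1856 and 525 CPM. The part of free RNA in the Obp44a difference was not tested.

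Hsp70Ab stood at 76.9 CPM in control, 560 CPM in mud and 249 CPM in nanobody. The counting intervals of its fold over control were 6.53 to 8.16 and 2.87 to 3.65. VAChT-only cells gave 76.4, 490 and 216 CPM of Hsp70Ab and VGlut-only cells 65.9, 494 and 203 CPM, so the libraries had the same order in all 3 classes. Barcodes of 20 to 200 UMIs, which hold mostly free RNA, had 80.1, 223 and 175 CPM of Hsp70Ab. Hsp68 was at 118 CPM in control and 442 CPM in mud, and Hsp26 at 456 CPM in control and 1119 CPM in nanobody. The part of handling or library in these differences was not tested.

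DIP-alpha, a cell surface protein of the same family as DIP-beta, took up 9221 CPM in control, 32908 CPM in mud and 13563 CPM in nanobody. Its fold in mud had a counting interval of 3.53 to 3.61. The same was seen in VAChT-only cells, at 8554 and 31378 CPM in control and mud, and in VGlut-only cells, at 8403 and 33954 CPM. In barcodes of 20 to 200 UMIs DIP-alpha was at 18130 CPM in control and 24584 CPM in mud. GluRIA, an ionotropic glutamate receptor subunit, was at 14.2 CPM in control and 59.6 CPM in mud among Gad1-only cells, a log2 ratio of 1.75. These values rest on few cells, with 66 UMIs in 22 cells of control and 283 UMIs in 61 cells of mud. In VAChT-only and VGlut-only cells the log2 ratios of GluRIA were 0.79 and 0.51. The difference between classes was not tested.

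Some genes low in an altered library were found in few Gad1-only cells. Abd-B had 1 or more UMIs in 9 cells of nanobody and 17 of control. Others were found in more, and insb had 1 or more UMIs in 108 and 162 cells. In mud, Fer3 was at 42.8 CPM against 93.2 CPM in control, from 203 and 434 UMIs, and the share of cells with it was 6.89% (4.90 to 9.37) against 9.65% (7.25 to 12.5). The intervals of those shares overlapped. The medulla factor scro was at 70.0 CPM in mud and 142 CPM in control, a log2 ratio of -0.98. Its log2 ratios were -0.10 in VAChT-only and -0.13 in VGlut-only cells. Gad1-only cells with scro were not fewer in mud, at 78 against 65 in control. The most scro UMIs in 1 cell were 28 in mud and 64 in control. In barcodes that hold mostly free RNA, scro was higher in mud, at 1351 CPM against 775 CPM in control. DIP-theta was at 25.1 CPM in mud and 74.9 CPM in control, a log2 ratio of -1.41. Its log2 ratios were -0.07 in VAChT-only and -0.05 in VGlut-only cells. In nanobody, the homeotic Abd-B was at 21.2 CPM against 50.5 CPM in control. The temporal factor cas was at 34.5 against 78.4 CPM, and insb at 70.9 against 135 CPM. Barcodes that hold mostly free RNA had more of cas, at 454 CPM in nanobody and 731 CPM in control. They also had more of insb, at 261 and 385 CPM, and less of Abd-B, at 13.8 and 17.4 CPM. The part of free RNA in the differences of cas, insb and Abd-B was not tested. For cas the log2 ratio was -1.08 in Gad1-only, -1.04 in VAChT-only and -0.22 in VGlut-only cells. Abd-B and insb were also lower in nanobody in the other classes, with log2 ratios of -0.92 and -1.21 for Abd-B and -0.99 and -0.44 for insb in VAChT-only and VGlut-only cells. The head gap gene oc was at 28.4 CPM in nanobody and 64.0 CPM in control in Gad1-only cells, a log2 ratio of -1.05, beside -0.20 and 0.04.

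**Figure D5:**
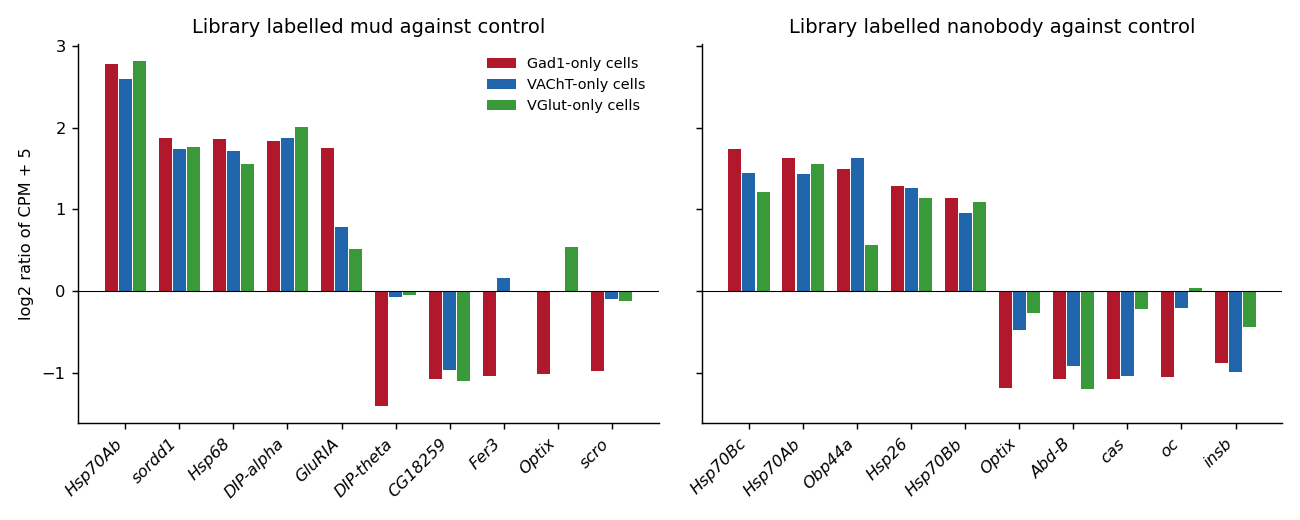
Log2 ratio of CPM plus 5 in the altered libraries against control for the 5 highest and 5 lowest genes in Gad1-only cells, with bars for the 3 classes and 1 library per genotype. Heat shock genes and DIP-alpha were higher in all 3 classes, and DIP-theta, Optix and scro had log2 ratios of -1.41, -1.01 and -0.98 in mud in Gad1-only cells. Differences between classes were not tested, and Fer3 was below the added 5 CPM in the other classes.

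Subgroups of Gad1-only cells also differed in size between libraries. The share with vg was 34.3% in mud against 27.2% in control and 25.1% in nanobody, and CG18599, which met vg in 93.0% of its cells, was held by 18.4% (15.2 to 22.0), 12.4% (9.65 to 15.5) and 11.2% (8.44 to 14.4) in that order. CG13739 was held by 13.8% (10.98 to 17.0) in mud, 6.37% (4.43 to 8.83) in control and 6.87% (4.74 to 9.55) in nanobody. The share with nvy ran the other way, at 22.7% (19.2 to 26.5) in mud, 34.9% (30.8 to 39.2) in control and 33.7% (29.4 to 38.2) in nanobody. For nvy and CG13739 the mud interval did not overlap that of control. For CG18599 and for vg, at 30.3 to 38.4 in mud and 23.4 to 31.3 in control, the intervals of mud and control overlapped. None of these shares was tested between genotypes, and no spread between libraries of 1 genotype is known.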

How the data were processed

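Cells sorted from larval brains of 3 genotypes were profiled as 1 library per genotype. The authors deposited raw UMI counts per gene and barcode, written by Cell Ranger 9.0.1 per the file headers, with all observed barcodes. The processing notes also name Seurat. Build, annotation and strand setting are not given in the sources used here.

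Cells, classes and levels were computed here from those counts. Gene positions come from Ensembl 115 (BDGP6.54), with 13976 of 13988 identifiers matched. Called cells held 108519041 to 113544220 UMIs per library. Shares carry exact Clopper-Pearson 95% intervals and folds between libraries exact conditional intervals, both for counting error only. Class sums were tested with edgeR 4.0.16 (TMM scaling, filterByExpr, quasi-likelihood F-test, library as block, Benjamini-Hochberg adjustment, 4 residual degrees of freedom). On simulated counts for 7153 genes the test recovered 82.1% of changes of 1 log2 unit over VGlut-only and 85.1% over VAChT-only cells. Doublets were kept in the main analysis. Scrublet scores (scanpy 1.11.5) were used as an alternative.

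The members and the 19 gene lists were chosen with earlier results of these data known. Genes were named by fixed rules: the 8 highest and lowest fold changes per class comparison, list members by size and level, the 12 factors held by most cells, and the 5 highest and lowest genotype ratios. A total of 68 alternatives were planned, and 2 were added after seeing the data. The numbers of libraries pair classes because the 3 classes of a library come from the same cell suspension.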

Additional observations from a re-analysis of the deposited data

Results flagged for a closer look

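Optix, a homeodomain factor of the optic lobe, stood in Gad1-only cells at 73.2 CPM for control and 33.7 CPM for mud, a log2 ratio of -1.01, while in VGlut-only cells it was at 38.5 and 58.0 CPM, a log2 ratio of 0.53. It is listed here because the ratio had opposite signs in the 2 classes, each with 1 library per genotype, and the difference was not tested. In VAChT-only cells the ratio for mud was -0.01. In nanobody the log2 ratios of Optix were -1.19 in Gad1-only, -0.47 in VAChT-only and -0.27 in VGlut-only cells. The values rest on few cells. Gad1-only cells with 1 or more Optix UMIs numbered 26 in control, 13 in mud and 13 in nanobody. In VGlut-only cells these numbers were 28, 45 and 24.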

How the results depend on the processing

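The log2 fold changes of the 8 highest and 8 lowest genes of each class comparison kept their direction and their side of the threshold under the 12 alternatives run for each. Several calls of list members were lost when 1 library was left out, as given beside them. Counts of higher and lower genes moved. Over VAChT-only cells they were 209 and 314 with DESeq2, 104 and 170 with no replicate block, 192 and 271 after thinning to 1000 UMIs, and 224 higher with at most 4 nSyb UMIs. Over VGlut-only cells they were 330 and 284 with DESeq2, 125 and 150 with no replicate block, 220 and 203 after thinning, and 312 higher with at most 4 nSyb UMIs. Leaving out 1 library gave 210 to 263 higher and 282 to 391 lower over VAChT-only cells, and 292 to 370 and 261 to 320 over VGlut-only cells.

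The share of all cells, in the order control, mud and nanobody, was 6.11%, 6.29% and 5.33% with at least 1 marker UMI, 2.15%, 2.28% and 2.01% with at least 3, 2.15%, 2.05% and 1.96% with at most 4 nSyb UMIs, 3.91%, 3.86% and 3.54% with at least 2000 UMIs per cell, 2.31%, 2.71% and 1.99% after thinning, and 9.40%, 9.02% and 8.38% with CG14989 in place of Gad1. The share of single-transmitter cells was 21.3%, 21.3% and 17.5% with 1 UMI, 13.7%, 15.3% and 11.9% with 3, 13.3%, 15.8% and 11.97% after thinning, 15.6% in mud with at most 4 nSyb UMIs, and 35.7%, 35.5% and 31.0% with CG14989. Nanobody had the lowest share of the libraries in each of these settings. Among the named log2 ratios to control, 23 values for mud and 19 for nanobody moved beyond counting error under an alternative, 37 and 41 did not, and none changed sign. Depth limits the rule itself, since Gad1 had a median of 3 UMIs and as many as 419 cells per library sat at 1.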
